A study of Mus musculus with 12 samples.

Results

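Cardiac transcription factor genes were examined by name in RNA sequencing of heart ventricles and epididymal white adipose tissue (EWAT) of wild-type (WT) mice and of MED13cTg mice, a transgenic line that overexpresses MED13 in the heart. The genes were Gata4, Gata6, Nkx2-5, Tbx5, Tbx20, Hand2, Mef2a, Mef2c, Mef2d and Srf, 10 of the 23042 gene entries in the table of each tissue. Each has 1 entry of its own in both tables. All groups were male C57BL/6 littermates that were 6 weeks old by the labels, fed normal chow freely and sampled in the late afternoon. The 4 groups were WT ventricle, MED13cTg ventricle, WT EWAT and MED13cTg EWAT, with 3 libraries in each and 12 libraries in all. The labels number the libraries within a group but do not say whether each is a separate mouse, so a p-value measures the spread between these libraries. The sources used here do not give the promoter that drives the transgene or the number of lines, which limits what the model can stand for.

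These factors bind DNA and switch on the genes of heart muscle. GATA4 and GATA6 are zinc finger proteins, NKX2-5 is a homeodomain protein, TBX5 and TBX20 carry a T-box, HAND2 is a basic helix-loop-helix protein, and the MEF2 proteins and SRF carry a MADS box. They bind one another at shared enhancers of genes for contractile proteins, ion channels and natriuretic peptides, and several of them are needed for the heart to form. MED13 belongs to the kinase module of Mediator, the complex that links DNA-bound factors to RNA polymerase II, so the comparison asks whether its overexpression in heart muscle goes with a change in the factors' own transcripts.

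Values are in FPKM, fragments per kilobase of transcript scaled to the mapped fragments of the library, and levels can be compared between genes on this scale because it divides by length. Med13 itself stood at 13.1, 10.6 and 11.5 FPKM in the WT ventricle libraries and at 263, 181 and 204 FPKM in the MED13cTg ventricle libraries, 18.4 times as high by the ratio of means. In EWAT Med13 lay between 7.84 and 11.03 FPKM in all 6 libraries. The 8 cardiomyocyte markers, such as Myl2 and Tnni3, summed to 55290 to 84043 FPKM in ventricle libraries and to 31.4 to 61.7 FPKM in EWAT libraries. By rank correlation across genes the ventricle libraries were cut into 2 clusters, a number set in advance, and these cross the genotypes. All pairs of ventricle libraries were close, with rank correlations of 0.944 to 0.969. WT replicate 1 clustered with MED13cTg replicates 1 and 2, and MED13cTg replicate 3 with WT replicates 2 and 3. What separates the clusters is not given in the labels. In EWAT, MED13cTg replicates 1 and 2 stood apart from the other libraries. Replicate 1 held 16236 FPKM over 7 testis germ cell markers, against 234 to 285 FPKM in WT EWAT, and 479 FPKM over 6 adipocyte markers, against 4587 to 7820 FPKM in WT. Replicate 2 held 28842 FPKM over the adipocyte markers and 148 FPKM over 7 epididymis markers, against 46635 to 58873 FPKM in WT. Fold changes, shares and ratios in EWAT are therefore also described without these libraries. In bulk tissue, fewer cells of a type and less RNA per cell cannot be told apart.

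All 10 genes were expressed in the ventricles, and Mef2d stood highest and Tbx5 lowest. As the mean and SD over the 6 ventricle libraries, the order was Mef2d at 57.3 ± 10.5 FPKM, Nkx2-5 at 45.5 ± 7.03 FPKM, Gata6 at 36.9 ± 5.13 FPKM, Mef2a at 35.9 ± 13.1 FPKM and Gata4 at 28.5 ± 3.54 FPKM. Then came Hand2 at 26.5 ± 7.75 FPKM, Srf at 24.4 ± 3.57 FPKM, Tbx20 at 18.3 ± 1.25 FPKM, Mef2c at 15.998 ± 1.26 FPKM and Tbx5 at 8.03 ± 2.62 FPKM. Mef2c was above Tbx5 in 6 of 6 libraries, and this was the 1 pair of neighbours whose ranges did not overlap. Srf was above Tbx20, and Tbx20 above Mef2c, in 6 of 6 libraries although their ranges overlapped. Mef2d was the highest of the 10 in 5 libraries and Nkx2-5 in 1, WT replicate 1. Neighbours in the middle of the order changed places between libraries: Gata6 was above Mef2a in 3 of 6 and Hand2 above Srf in 3 of 6.

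**Figure D1:**
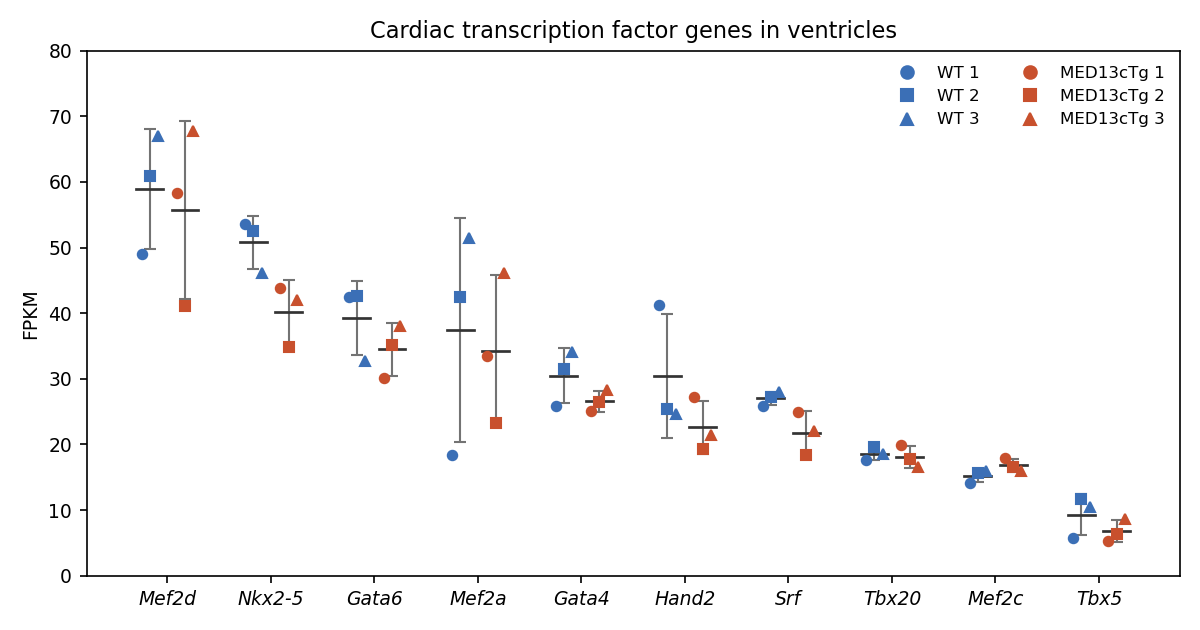
FPKM of each gene in the 6 ventricle libraries, ordered by mean level. Points are single libraries, horizontal lines are group means and vertical bars are SD (n = 3); Nkx2-5 and Srf are the genes whose MED13cTg points all lie below the WT points, and Mef2a has the widest spread.

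The comparison of ventricles found no called difference for any of the 10 genes. In 0 of 10 was the adjusted p under 0.05 (limma on log2(FPKM + 1), Benjamini-Hochberg over all 12589 genes tested), where 7 of all genes tested, or 0.0556%, passed. Nkx2-5 was the 1 member with an unadjusted p under 0.05, and it was lower, as were 3.03% of all genes tested at that threshold. The fitted log2 fold change was below 0 for 9 of the 10 genes, against 53.3% of all genes tested, and its median was -0.18 over the members and -0.014 over all genes. Taken cluster by cluster, the log2 difference was below 0 for 6 of 10 genes where WT replicate 1 belongs, for 7 of 10 where WT replicate 2 belongs, and in both for 4 of 10, namely Gata4, Nkx2-5, Hand2 and Srf. WT replicate 1 and MED13cTg replicate 3 are each the only library of their genotype in their cluster. Some differences were close to 0: Gata4 (-0.0056), Mef2d (-0.00092) and Tbx5 (0.0014) in the first cluster, Mef2a (-0.018) and Mef2c (0.014) in the second. The shares over all genes were not computed for these counts. All 3 MED13cTg values lay under all 3 WT values for 2 genes, Nkx2-5 and Srf (5.85% of all genes tested), and over them for 1 gene, Mef2c (3.46% of all genes tested). After median-of-ratios scaling of the libraries only Nkx2-5 remained without overlap, and after quantile normalization Nkx2-5 and Mef2c did.

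**Figure D2:**
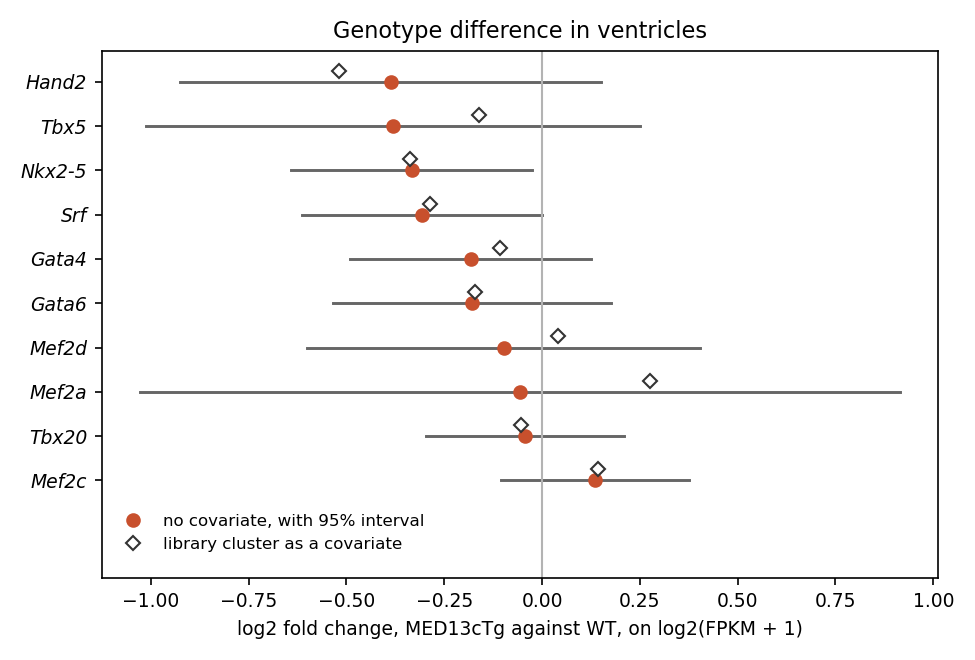
Log2 fold change of each gene in ventricles, MED13cTg against WT, on the log2(FPKM + 1) scale. Filled circles with bars are the fit without a covariate and its 95% interval, and open diamonds are the fit with the library cluster as a covariate; 9 circles lie below 0, and the interval of Nkx2-5 alone leaves out 0.

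Nkx2-5 was lower in each MED13cTg ventricle library than in any WT one, and it was not called. The gene encodes the homeodomain factor that marks early heart progenitors and works with GATA4 and TBX5, and its entry lies at chr17:26975609-26978510 in mm9, the build that the submitters' processing notes name. It stood at 53.6, 52.6 and 46.2 FPKM in WT replicates 1, 2 and 3 and at 43.9, 34.8 and 41.9 FPKM in MED13cTg replicates 1, 2 and 3. The lowest WT library lay above the highest MED13cTg library, so the groups did not overlap. The WT mean was 50.8 ± 4.04 FPKM, the MED13cTg mean 40.2 ± 4.80 FPKM (SD, n = 3 each), and their ratio 0.792. The log2 fold change was -0.33 with a standard error of 0.13 and a 95% interval from -0.64 to -0.03 (limma, unadjusted p = 0.0378, adjusted p = 0.966). It was -0.34 with the library cluster as a covariate. Over all alternatives it stayed between -0.40 and -0.24, with no adjusted p under 0.131. The value nearest 0 was the one without MED13cTg replicate 2 (unadjusted p = 0.107 in limma). The unadjusted p ran from 0.0193 to 0.111 over the alternatives.

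The GATA genes were both slightly lower on average in MED13cTg ventricles, with overlapping libraries. Gata4, needed for heart tube formation and for growth of heart muscle under load, lies at chr14:63817751-63890449 in mm9. It measured 25.9, 31.5 and 34.0 FPKM in the WT libraries, against 25.1, 26.5 and 28.2 FPKM under the transgene. All 3 MED13cTg libraries were below the WT mean of 30.5 FPKM, but WT replicate 1 was lower than MED13cTg replicates 2 and 3. The fitted change (log2) was -0.18 with a standard error of 0.13 and a 95% interval from -0.49 to 0.13 (limma, adjusted p = 0.966). It moved to -0.29 without WT replicate 1 (unadjusted p = 0.0381, adjusted p = 0.424 in limma). Without WT replicate 3 it was -0.10 (unadjusted p = 0.503 in limma). Limma array weights gave -0.28 (unadjusted p = 0.0167, adjusted p = 0.127). The unadjusted p was under 0.05 in 2 of the 16 alternatives. Gata6, which acts in the same myocardial programme and in the outflow tract, lies at chr18:11052116-11085633. It gave 42.5, 42.6 and 32.7 FPKM in WT replicates 1 to 3 and 30.2, 35.1 and 38.1 FPKM in the transgenic replicates, where WT replicate 3 fell among the MED13cTg values. Its log2 fold change was -0.18 with a standard error of 0.15 and a 95% interval from -0.54 to 0.18 (adjusted p = 0.966). Without WT replicate 3 it was -0.30, with array weights -0.31, and without MED13cTg replicate 1 it was -0.09; without WT replicate 1 or 2 it was -0.12 each time.

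The ratio of Gata4 to Gata6 within a library does not depend on how libraries were scaled. It was 0.609, 0.740 and 1.04 in WT ventricles and 0.831, 0.753 and 0.741 in MED13cTg ventricles. Gata6 was therefore the higher of the pair in 5 of 6 ventricle libraries, with WT replicate 3 as the exception. The ratio did not differ beyond its spread (exact two-sided permutation p = 1.0; 3 against 3 libraries allow no p below 0.1).

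Of the T-box genes, Tbx5 varied widely between ventricle libraries and Tbx20 little, and neither was called between genotypes. Tbx5, the gene of Holt-Oram syndrome and a factor for septation and the conduction system, lies at chr5:120284671-120335227 in mm9. It had WT values of 5.81, 11.7 and 10.4 FPKM and MED13cTg values of 5.35, 6.33 and 8.62 FPKM in ventricles. The 3 libraries of the cluster with WT replicate 1 held 5.35 to 6.33 FPKM and the other 3 held 8.62 to 11.7 FPKM, so the clusters did not overlap while the genotypes did. The log2 fold change of -0.38, with a standard error of 0.27 and a 95% interval from -1.01 to 0.25, was -0.16 with the cluster as a covariate and -0.77 with limma array weights (adjusted p = 0.966, 0.806 and 0.102). It was -0.65 without WT replicate 1, -0.21 without WT replicate 2 and -0.25 without MED13cTg replicate 1. Tbx20, needed for proliferation and upkeep of heart muscle cells, lies at chr9:24525255-24578747. It was the steadiest of the 10, with WT values of 17.6, 19.6 and 18.6 FPKM and MED13cTg values of 19.8, 17.7 and 16.6 FPKM. The coefficient of variation over the 6 libraries was 6.83% for Tbx20 and 32.6% for Tbx5, beside a median of 14.8% over all genes tested. For Tbx20 the log2 fold change was -0.04 with a 95% interval from -0.30 to 0.21.

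Hand2 was lower on average in MED13cTg ventricles, and 1 WT library set much of that difference. HAND2 is needed for the right ventricle to form, and the gene lies at chr8:59799232-59803314 in mm9. It measured 41.2, 25.4 and 24.6 FPKM in the WT libraries, against 27.2, 19.3 and 21.4 FPKM under the transgene. WT replicate 1 was the highest of the 6 libraries, and MED13cTg replicate 1 lay above the other WT libraries. Its log2 fold change was -0.39 with a standard error of 0.23 and a 95% interval from -0.93 to 0.15 (limma, adjusted p = 0.966). Without WT replicate 1 it was -0.15 (unadjusted p = 0.373 in limma). With the library cluster as a covariate it was -0.52 (unadjusted p = 0.0310, adjusted p = 0.620 in limma). Array weights gave -0.10 (unadjusted p = 0.534 in limma). In 2 of the 16 alternatives the unadjusted p was under 0.05. The log2 difference was -0.82 among the libraries that cluster with WT replicate 1 and -0.22 among the others.

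The stretch before the Hand2 start is shown because it held matches to binding motifs of other factors in the same group. RefSeq promoter windows on GRCm38.p6 were matched by symbol for 7 of the 10 genes, and the 250 bases before the start were searched on both strands. The motifs were AGATAA as bound by GATA factors, CAAGTG as bound by NKX2-5 and its relatives, AGGTGT as bound by T-box factors, CATCTG as bound by HAND factors, the CArG box of SRF and the MEF2 site. The Hand2 window lies at chr8:57320733-57320982 on the plus strand of GRCm38.p6, and its matches are in capitals. From left to right they are CATCTG on the strand shown, then CAAGTG on the other strand, then AGATAA on the other strand.
Hand2: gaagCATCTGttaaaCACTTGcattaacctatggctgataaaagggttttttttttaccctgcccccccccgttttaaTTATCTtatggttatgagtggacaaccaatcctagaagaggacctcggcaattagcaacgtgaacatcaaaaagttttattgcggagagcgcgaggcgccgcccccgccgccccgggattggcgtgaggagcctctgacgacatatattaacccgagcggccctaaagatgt
Of 32851 mouse windows of this length, 14.4% held CATCTG, 11.6% held CAAGTG, 9.99% held AGATAA and 11.8% held AGGTGT, so these short matches are common. The 3 Mef2c windows held 1 such short match each, and the windows of Mef2a, Mef2d, Tbx20 and Nkx2-5 held no match to the letters searched.

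Of the 3 MEF2 genes, Mef2c was steady and Mef2a varied most of all members. The MEF2 proteins drive muscle structural and metabolic genes and are held in check by class IIa histone deacetylases. Mef2a, at chr7:74378716-74517744 in mm9, gave 18.5, 42.4 and 51.5 FPKM in WT replicates 1 to 3 and 33.5, 23.2 and 46.2 FPKM in the transgenic replicates. It was 18.5 to 33.5 FPKM in the cluster with WT replicate 1 and 42.4 to 51.5 FPKM in the other, a ratio of cluster means of 1.86 without overlap. The genotypes overlapped fully, and the log2 fold change was -0.06 with a standard error of 0.41 and a 95% interval from -1.03 to 0.92. This sign turned to 0.28 with the cluster as a covariate.

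Mef2d, at chr3:87946316-87973089 in mm9, had WT values of 49.0, 60.9 and 67.0 FPKM and MED13cTg values of 58.3, 41.1 and 67.8 FPKM in ventricles. Its clusters did not overlap either, with the cluster of WT replicate 1 the lower, whereas the lowest and the highest library were both MED13cTg. The log2 fold change was -0.10 with a 95% interval from -0.60 to 0.40, and it was 0.04 with the cluster as a covariate. Without overlap between clusters were 4 of the 10 genes (Gata4, Tbx5, Mef2a and Mef2d), each higher in the cluster with WT replicate 2, as were 17.1% of all genes tested. The clusters were drawn from the same libraries, so this count is a description. The transcript 1700113A16Rik, which RefSeq on GRCm38.p6 places over the end of Mef2d, has its own entry past the end of the Mef2d entry in the tables. It measured 49.6, 28.9 and 31.1 FPKM in the WT libraries, against 33.4, 54.1 and 29.2 FPKM under the transgene, highest in the libraries where Mef2d was lowest. The library kit does not mark the strand, so reads of the overlap cannot be assigned to either gene.

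Mef2c, at chr13:83643032-83806684 in mm9, is the MEF2 gene that the heart tube cannot loop without. It gave 14.1, 15.6 and 15.93 FPKM in WT replicates 1 to 3 and 17.9, 16.5 and 15.93 FPKM in the transgenic replicates. All 3 MED13cTg values lay over all 3 WT values, but the lowest MED13cTg and the highest WT value were equal to 4 digits. Mef2c was the 1 member with a fitted increase, a log2 fold change of 0.14 with a standard error of 0.10 and a 95% interval from -0.10 to 0.38 (limma, adjusted p = 0.966).

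**Figure D3:**
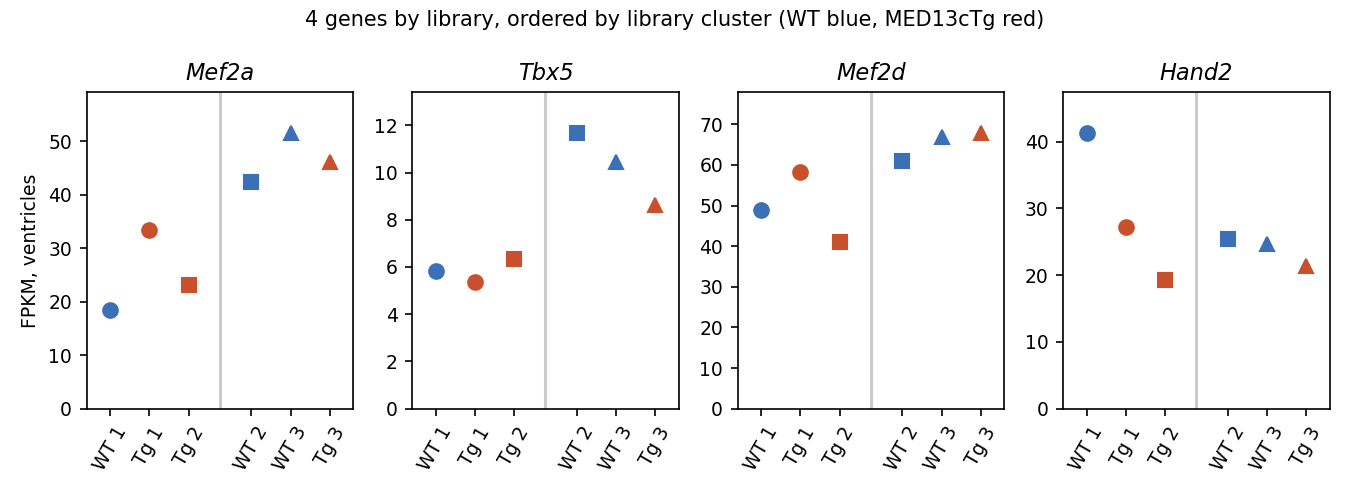
FPKM of Mef2a, Tbx5, Mef2d and Hand2 in each ventricle library, with the cluster of WT replicate 1 left of the grey line and the other cluster right of it (WT blue, MED13cTg red, Tg for MED13cTg). Mef2a, Tbx5 and Mef2d are higher right of the line in every library, and Hand2 is highest in WT replicate 1.

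The share of each gene in the summed FPKM of Mef2a, Mef2c and Mef2d was compared within libraries. Mef2d made up 60.1, 51.2 and 49.8% in WT and 53.1, 50.9 and 52.2% in MED13cTg ventricles. Mef2a made up 22.6, 35.7 and 38.3% in WT and 30.5, 28.7 and 35.5% in MED13cTg, and Mef2c made up 17.3, 13.1 and 11.9% in WT and 16.4, 20.4 and 12.3% in MED13cTg. Mef2d was thus the largest share in 6 of 6 ventricle libraries. None of the shares differed beyond its spread, with exact two-sided permutation p-values of 0.9 for Mef2a, 0.6 for Mef2c and 0.9 for Mef2d. As 3 against 3 libraries allow no p below 0.1, no share could have passed a threshold of 0.05. Adjusted over the 8 tests of shares and ratios in both tissues, every p was 1.0.

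Srf was the second gene whose groups did not overlap. SRF binds the CArG box of genes for actin and other cytoskeletal proteins and of immediate early genes, together with myocardin and its relatives, and the gene lies at chr17:46683787-46693111 in mm9. It had WT values of 25.9, 27.2 and 27.9 FPKM and MED13cTg values of 24.9, 18.4 and 22.1 FPKM in ventricles. WT replicate 1 lay only just above MED13cTg replicate 1, and this gap closed under both other scalings. The WT mean was 27.0 ± 1.01 FPKM, the MED13cTg mean 21.8 ± 3.24 FPKM (SD, n = 3 each), and their ratio 0.807. The log2 fold change was -0.31 with a standard error of 0.13 and a 95% interval from -0.61 to 0.00055 (limma, unadjusted p = 0.0503, adjusted p = 0.966). It stayed below 0 over all alternatives, from -0.40 to -0.20, with no adjusted p under 0.169, and the value nearest 0 was the one without MED13cTg replicate 2. Within clusters the difference was -0.26 in that of WT replicate 1 and -0.31 in the other. The first value averages 2 unlike MED13cTg libraries, at 24.9 and 18.4 FPKM, against WT replicate 1 alone. The second rests on MED13cTg replicate 3 alone.

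The Srf promoter is shown because it held 2 copies of the CArG box, the element that SRF itself binds. At least 1 copy stood in 1.47% of the 32851 mouse windows. The window lies at chr17:46556163-46556412 on the minus strand of GRCm38.p6, written towards the start of the gene, with both boxes in capitals. They begin 82 and 62 bases before the start.
Srf: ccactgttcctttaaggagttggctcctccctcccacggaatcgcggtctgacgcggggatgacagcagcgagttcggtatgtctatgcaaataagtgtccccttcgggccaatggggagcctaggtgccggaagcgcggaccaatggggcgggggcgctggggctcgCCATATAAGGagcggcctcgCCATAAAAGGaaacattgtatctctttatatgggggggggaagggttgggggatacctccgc
No window of the 7 genes held a MEF2 site, which 2.92% of all windows held. A match to letters is no evidence of binding, and no binding was measured here.

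The partners of these factors were given by a list of 19 cofactors, among them myocardin, the histone deacetylases and the FOG proteins. All 19 were tested in ventricles, 15 had a log2 fold change below 0 and 4 above, and 0 were called or had an unadjusted p under 0.05. The median was -0.10, beside -0.014 over all genes tested. Prkd1, a kinase that drives class IIa histone deacetylases out of the nucleus, measured 4.28, 5.02 and 3.82 FPKM in the WT libraries, against 3.52, 2.31 and 4.04 FPKM under the transgene (log2 fold change -0.34, standard error 0.18). Myocd, the SRF coactivator myocardin, gave 10.1, 14.2 and 15.7 FPKM in WT replicates 1 to 3 and 10.4, 7.79 and 13.0 FPKM in the transgenic replicates (-0.34, standard error 0.22). Zfpm1 (FOG1), a partner of GATA factors, had a log2 fold change of -0.18, and Mkl1, a further SRF coactivator, of 0.29. The groups overlapped for each of the 19.

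Of 18 relatives of the members, such as other GATA, T-box and Iroquois genes, 9 passed the filter of a mean of at least 1 FPKM in ventricles, and 0 were called. Irx3, an Iroquois homeobox gene of the ventricular conduction system, had the lowest p. It had WT values of 20.8, 23.7 and 26.7 FPKM and MED13cTg values of 15.8, 15.9 and 18.9 FPKM in ventricles, without overlap. Its log2 fold change was -0.47 with a standard error of 0.13 (limma, unadjusted p = 0.00902, adjusted p = 0.945). Tead1, a factor of MCAT elements in muscle genes, measured 22.8, 31.7 and 32.6 FPKM in the WT libraries, against 21.6, 15.3 and 26.0 FPKM under the transgene, with overlap (-0.47, standard error 0.22). Irx5 had a log2 fold change of -0.35 with overlap and Tbx18 of 0.17 without overlap, its MED13cTg libraries at 2.59 to 2.78 FPKM and its WT libraries at 2.00 to 2.45 FPKM. The median over the 9 was -0.16.

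A list of 22 known target genes was read in the same fit, and 0 of 22 were called. In 14 the log2 fold change was below 0 and in 8 above, with a median of -0.09. An unadjusted p under 0.05 was reached by 3 lower genes and by 1 higher gene, Nppa, where 3.03% and 1.69% of all genes tested did so. Nppa, which encodes atrial natriuretic peptide and is a target of GATA4, NKX2-5 and TBX5, gave 564, 408 and 368 FPKM in WT replicates 1 to 3 and 892, 1773 and 1088 FPKM in the transgenic replicates. All MED13cTg libraries were above all WT libraries, and the log2 fold change was 1.45 with a standard error of 0.29 (unadjusted p = 0.00184, adjusted p = 0.746). Of the atrial markers, Myl7 had WT values of 63.5, 20.9 and 32.3 FPKM and MED13cTg values of 45.6, 322 and 37.4 FPKM in ventricles. Sln had 18.7, 4.30 and 12.3 FPKM in WT, against 20.3, 103 and 6.11 FPKM, and Bmp10 was listed at 0 in all but MED13cTg replicate 2 (0.489 FPKM). The 5 atrial markers, Nppa among them, summed to 447 to 743 FPKM in WT and 996 to 2443 FPKM in MED13cTg. Myl7 and Sln were highest in MED13cTg replicate 2, the library with the most Nppa, while both stayed within the WT range or near it in MED13cTg replicates 1 and 3, and the part of atrial tissue in the Nppa difference was not tested. Nppb, the gene of B-type natriuretic peptide, measured 205, 130 and 94.7 FPKM in the WT libraries, against 239, 230 and 89.7 FPKM under the transgene, with overlap (log2 fold change 0.32, standard error 0.44).

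The 3 lower target genes with an unadjusted p under 0.05 in limma were Vcl, Slc8a1 and Ppargc1a. Counted by overlap instead, all MED13cTg libraries lay below all WT libraries for 2 of the 22, Vcl and Ckm. They lay above for 2, Nppa and Actc1. The shares over all genes tested were 5.85% and 3.46%. Vcl, the vinculin gene and a target of SRF, gave 81.4, 97.8 and 95.7 FPKM in WT replicates 1 to 3 and 54.9, 63.9 and 78.2 FPKM in the transgenic replicates, without overlap (log2 fold change -0.49, standard error 0.16, adjusted p = 0.966). Slc8a1, the sodium-calcium exchanger, had WT values of 12.8, 20.4 and 22.9 FPKM and MED13cTg values of 11.01, 9.08 and 13.4 FPKM in ventricles, with WT replicate 1 between the MED13cTg libraries (-0.67, standard error 0.23). Ppargc1a, a MEF2 target and coactivator of mitochondrial genes, measured 63.3, 55.5 and 44.6 FPKM in the WT libraries, against 33.0, 30.6 and 47.4 FPKM under the transgene, with MED13cTg replicate 3 above WT replicate 3 (-0.56, standard error 0.21). Myh6 shares 1 entry with Myh7 in the tables, so the adult and fetal myosin heavy chains cannot be told apart.

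For every member but Srf the gene with the most similar course over the 6 ventricle libraries was sought among the 12588 others tested, by Pearson's r on log2(FPKM + 1). For Nkx2-5 it was Zdhhc14 (r = 0.996), a palmitoyltransferase gene with WT values of 3.73, 3.53 and 3.18 FPKM and MED13cTg values of 2.89, 2.17 and 2.76 FPKM. For Mef2a it was Nt5c1a (r = 0.999), a cytosolic nucleotidase gene, whose FPKM ran from 1.32 in WT replicate 1 to 15.0 in WT replicate 3. For Mef2d it was Ern1 (r = 0.998), for Gata4 Gp1ba (r = 0.998), for Tbx5 Mettl15 (r = 0.9975), for Hand2 Pvrl3 (r = 0.992), for Gata6 Pnrc1 (r = 0.989), for Tbx20 Cltc (r = 0.989) and for Mef2c Gemin8 (r = 0.981). With 6 libraries and this many genes the best of them is always close, and these values describe likeness in these libraries only.

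In EWAT some members were expressed, and others were low or listed at 0. Every ventricle library was above every EWAT library for 10 of 10 genes, given side by side with no test because the tables were estimated separately. The share of all genes with such a separation was not computed, so the count does not set these factors apart from other genes. In WT EWAT 5 genes were at 1 FPKM or more in each library (Gata6, Mef2a, Mef2c, Mef2d and Srf), and the other 5 were under 1 FPKM in each. Srf, at 11.5, 10.6 and 11.03 FPKM in WT EWAT, came closest to its ventricle level, with a ratio of WT means of 2.45. The ratio was 4.54 for Mef2a, 6.67 for Mef2c, 8.25 for Mef2d and 14.3 for Gata6. These WT EWAT libraries held 46635 to 58873 FPKM over the epididymis markers and 4587 to 7820 FPKM over the adipocyte markers. The ratios are thus those of a mixture, not of fat alone. In MED13cTg replicate 2, the adipocyte-rich library, Mef2d (15.0 FPKM), Gata6 (10.4 FPKM) and Mef2c (5.96 FPKM) were above every WT EWAT library. Mef2a (9.52 FPKM) and Srf (10.01 FPKM) were not. The part of epididymis RNA was not tested. Nkx2-5 was listed at 0 in all 6 EWAT libraries. Tbx20 was at most 0.0365 FPKM in any EWAT library, and Hand2 lay between 0.295 and 0.620 FPKM.

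**Figure D4:**
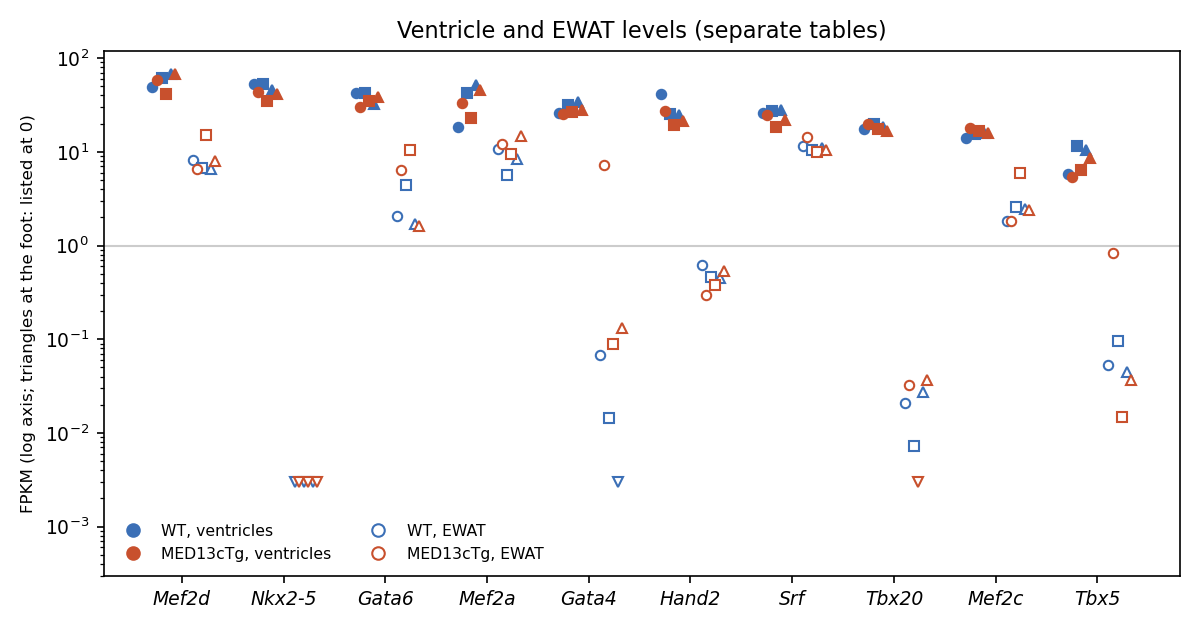
FPKM of the 10 genes on a log axis in ventricles (filled) and EWAT (open), WT in blue and MED13cTg in red, with libraries listed at 0 drawn as triangles at the foot. The grey line marks 1 FPKM; in EWAT, Gata4 and Tbx5 have 1 open red circle far above their other libraries, MED13cTg replicate 1.

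Between genotypes, 0 of the 6 members tested in EWAT were called (limma, 14967 genes tested, of which 2, or 0.0134%, passed, and 0 with the replicate number as a block), and 0 of 6 had an unadjusted p under 0.05. Gata4 entered the comparison only through MED13cTg replicate 1. The log2 fold changes of the other 5 ran from 0.06 for Srf to 0.77 for Gata6, beside a median of 0.01 over all genes, of which 50.7% were above 0. Without MED13cTg replicates 1 and 2, which leaves 1 MED13cTg library that is assumed to vary like the WT libraries, these 5 members could be tested and ran from -0.45 for Gata6 to 0.81 for Mef2a, with an adjusted p of 0.999 for each.

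Gata4 stood at 0.0687, 0.0145 and 0 FPKM in WT EWAT and at 7.21, 0.0881 and 0.132 FPKM in MED13cTg EWAT. It passed the filter only through MED13cTg replicate 1, the library with the testis markers, and its log2 fold change of 1.07 had a standard error of 0.89 (adjusted p = 0.738). All MED13cTg libraries were above all WT libraries (4.88% of all genes tested), but apart from replicate 1 every value was at or under 0.132 FPKM. Insl3, a Leydig cell marker, was at 1160 FPKM in that library and at 11.6 to 23.4 FPKM in the other EWAT libraries. In ventricle libraries Insl3 was at 21.6 to 46.3 FPKM. The 5 testis somatic cell markers summed to 1344 FPKM in MED13cTg replicate 1 and to 15.7 to 34.7 FPKM in the other EWAT libraries. The part of testis RNA in the Gata4 value was not tested. Tbx5 was likewise highest in MED13cTg replicate 1, at 0.832 FPKM, and at most 0.0967 FPKM in the other EWAT libraries. The ratio of Gata4 to Gata6 was 1.11 in that library and at most 0.0816 in the other 5 (exact two-sided permutation p = 0.2 between genotypes). The difference of the mean ratios, MED13cTg minus WT, was 0.389 with all libraries and 0.0329 without replicate 1. Without replicates 1 and 2 the 1 remaining MED13cTg library had a ratio of 0.0816, against 0 to 0.0330 in WT.

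In EWAT, Gata6 had WT values of 2.08, 4.47 and 1.68 FPKM and MED13cTg values of 6.48, 10.4 and 1.61 FPKM. The 2 high libraries were the ones that stood apart, and the log2 fold change of 0.77 with a standard error of 0.63 turned to -0.45 without them. Mef2a gave 10.6, 5.68 and 8.43 FPKM in WT replicates 1 to 3 and 12.1, 9.52 and 14.8 FPKM in the transgenic replicates, with overlap. Its log2 fold change was 0.53 with a standard error of 0.30, and 0.81 with a standard error of 0.34 without the 2 libraries (adjusted p = 0.738 and 0.999). Mef2c and Mef2d were highest in MED13cTg replicate 2, the adipocyte-rich library, at 5.96 and 15.0 FPKM, against at most 2.55 and 8.10 FPKM in the other 5. Without both libraries their log2 fold changes of 0.31 and 0.34 became 0.04 and 0.16. Srf had a log2 fold change of 0.06, which was -0.06 without the 2 libraries.

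Within EWAT libraries Mef2d made up 31.8 to 49.2% and Mef2a 31.3 to 59.3% of the summed MEF2 transcripts, and Mef2c 8.90 to 19.6%. In ventricles the ranges were 49.8 to 60.1% for Mef2d and 22.6 to 38.3% for Mef2a, so every ventricle library had a larger Mef2d share than any EWAT library. The gap was narrow, between 49.8% in WT ventricle replicate 3 and 49.2% in MED13cTg EWAT replicate 2, the adipocyte-rich library. With all EWAT libraries the exact two-sided permutation p-values between genotypes were 0.6 for Mef2a, 0.9 for Mef2c and 0.6 for Mef2d. The difference of the mean shares, MED13cTg minus WT, depended on the libraries that stood apart. For Mef2a it was 3.80 percentage points with all libraries, 13.04 without MED13cTg replicate 2 and -0.97 without replicate 1. For Mef2d it was -3.08, -8.85 and -0.18 points in the same order, and for Mef2c -0.71, -4.19 and 1.147 points. MED13cTg replicate 3, the library left without both, held 58.7% Mef2a, 9.38% Mef2c and 31.9% Mef2d, against 37.8 to 51.6%, 8.98 to 17.0% and 37.5 to 45.2% in WT.

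**Figure D5:**
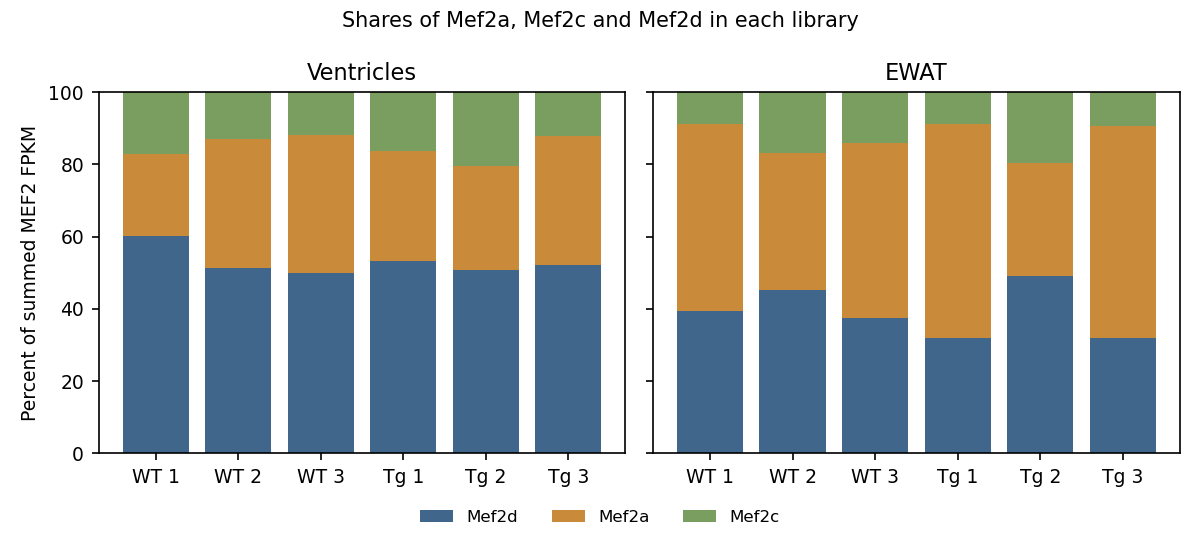
Percent of the summed FPKM of Mef2a, Mef2c and Mef2d in each library of ventricles and EWAT (Tg for MED13cTg). Mef2d is the largest share in every ventricle library and Mef2c the smallest, while Mef2a is the largest share in 4 of 6 EWAT libraries.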

How the data were processed

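RNA was sequenced from ventricles and EWAT of WT and MED13cTg mice. Libraries were made with the TruSeq RNA Sample Prep Kit, from 1 ug of total RNA per the labels and less per the study's methods, and the authors ran TopHat for alignment and Cufflinks for expression, both at default settings (mm9 per the labels; versions not given in the sources used here). The values were deposited as FPKM in 1 table per tissue, beside the authors' group means and folds, which were not used, and 1 unnamed EWAT column of 7 values, not used here. FPKM corrects for length and for mapped fragments, not for the mixture of cells. Absolute depth is unknown. From values under 0.15 FPKM, depth relative to WT replicate 1 was 0.923 to 1.02 in ventricles and 0.672 to 0.942 in EWAT, lowest in MED13cTg replicates 1 and 2.

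Within each tissue, genes whose mean over its 6 libraries reached 1 FPKM entered a comparison on log2(FPKM + 1), a scale that understates changes of low genes, with limma 3.58.1 in R 4.3.3 (lmFit, eBayes with a mean-variance trend, Benjamini-Hochberg, threshold 0.05), each tissue on its own. On simulated data with 12447 genes in ventricles the steps recovered 84 of 100 genes changed by 1 on the log2 scale. They recovered 100 of 100 changed by 2, with 13 false calls. The simulated libraries had independent noise without clusters, and the changed genes were drawn from those of higher level. Changes as small as those fitted for the members, at most 0.39 in size in ventricles, were not simulated. The recovery therefore does not apply to them. Shares and ratios were compared by exact permutation tests (scipy 1.17.1), with plots from matplotlib 3.10.9. Deviations of same-numbered libraries from their group means had correlations of 0.347, 0.304 and 0.144 in EWAT and 0.0855, -0.192 and 0.140 in ventricles. Pairs of unlike number reached 0.168 in EWAT and 0.188 in ventricles, so these values do not establish a pairing. Beside the members, the rule named Med13, of each list up to 4 genes with the lowest unadjusted p plus Nppa and Nppb, the gene most like each member (not reported here for Srf), and listed overlapping partners. The members, lists, tests and alternatives were chosen with earlier results of these data known. RefSeq on GRCm38.p6 places further non-coding genes within or across Gata6, Tbx5, Mef2c and Srf, which were not analysed here.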

Additional observations from a re-analysis of the deposited data

Results flagged for a closer look

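The fitted log2 fold change of Gata4 was -0.18 in ventricles and 1.07 in EWAT, opposite in sign. Each MED13cTg ventricle library lay below the WT mean. In EWAT each lay above a WT mean of 0.0277 FPKM, but MED13cTg replicates 2 and 3 were near 0, at 0.0881 and 0.132 FPKM. The difference between tissues was not tested, because the tables were estimated separately, and neither change was called. In EWAT the value rests on MED13cTg replicate 1: without it Gata4 no longer passed the filter.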

How the results depend on the processing

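In no alternative was any of the members called, in either tissue: the lowest adjusted p over the 16 settings was 0.102 in ventricles (Tbx5 under array weights) and 0.2495 in EWAT (Gata6 without MED13cTg replicate 3). Of 160 log2 fold changes of members under alternatives in ventricles, 153 kept their sign, as did 85 of 91 in EWAT. In ventricles the sign turned for Mef2a (0.28) and Mef2d (0.042) with the library cluster as a covariate, and leaving out 1 library gave -0.49 (without WT replicate 1) to 0.23 (without WT replicate 3) for Mef2a, -0.25 (without MED13cTg replicate 3) to 0.10 (without MED13cTg replicate 2) for Mef2d and -0.11 to 0.013 for Tbx20. In EWAT it turned without MED13cTg replicates 1 and 2 for Gata6 (-0.45) and Srf (-0.062), for Srf also under array weights (-0.047) and quantile normalization (-0.058), and leaving out 1 library gave -0.095 to 0.15 for Srf and -0.083 to 0.57 for Mef2c. Without MED13cTg replicate 1 or without both libraries, Gata4 in EWAT was below the filter and gave no value. The cause of these turns was not tested. Mef2c in ventricles went from 0.14 to 0.084 without WT replicate 1 and to 0.089 without MED13cTg replicate 1.

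The median over the members in ventricles lay between -0.27 and -0.14 when 1 library was left out. In EWAT it was 0.43 over the 6 members tested, Gata4 with its entry through 1 library among them, and lay between 0.23 and 0.57, and it was 0.34 with a filter at 5 FPKM, 0.31 with no filter, 0.49 after median-of-ratios scaling, 0.30 after quantile normalization and 0.045 without MED13cTg replicates 1 and 2. Members without overlap and lower in MED13cTg ventricles were 1 after median-of-ratios scaling and 1 after quantile normalization instead of 2, and higher ones were 0 after median-of-ratios scaling instead of 1; in EWAT quantile normalization made 1 lower, Srf, instead of 0. Over all genes, between 2 and 7 were called higher and 0 to 8 lower in ventricles, against 3 and 4, and 0 to 17 higher and 0 to 4 lower in EWAT, against 0 and 2. A replicate block gave 3 genes called higher and 1 called lower in ventricles and 0 in EWAT, 0 of them members, and the median over the members stayed at -0.18 and 0.43. Hand2 then had the lowest p of the members in ventricles (unadjusted p = 0.0299, adjusted p = 0.915). Each member has 1 entry, so summing entries changes no value. Libraries of 3 a group and an unknown depth limit all of these values, and an FPKM near 0 rests on few fragments.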

Other observations

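Relatives of the members also differed between the EWAT libraries. Gata1, a GATA gene of blood and Sertoli cells, stood at 11.9 FPKM in MED13cTg replicate 1 and at most 0.103 FPKM in the other 5. Mef2b stood at 3.09 FPKM and Irx5 at 3.31 FPKM in that library, against at most 0.410 and 0.149 FPKM in the others. Gata3 stood at 12.3, 9.34 and 11.9 FPKM in WT EWAT and at 2.45, 0.357 and 10.1 FPKM in MED13cTg EWAT, and Tbx2 at 56.0, 39.5 and 39.0 FPKM against 10.1, 8.14 and 46.2 FPKM. Both were lowest in the libraries with the lowest sums of epididymis markers, MED13cTg replicates 1 and 2 (7302 and 148 FPKM). These genes were chosen after their values were seen, 0 of the 9 relatives that passed the filter in EWAT were called (Mef2b and Irx5 did not pass it and were not tested; Gata1 passed it only through MED13cTg replicate 1), and the part of other tissues in these values was not tested.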
